A study of Homo sapiens with 6 samples.

Results

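After the amino group and then the carboxyl carbon of leucine, isoleucine and valine have been removed, the remaining acyl-CoA esters are broken down inside mitochondria by dedicated enzymes. The genes described here encode 9 of these enzyme proteins: IVD, MCCC1, MCCC2 and AUH of the leucine branch, HIBCH and HIBADH of the valine branch, and PCCA, PCCB and MUT of the propionyl-CoA route. They are picked by symbol, and all 9 were found among the 15059 genes of the table. The leucine branch ends in acetyl-CoA and acetoacetate, whereas isoleucine and valine deliver propionyl-CoA, which is carboxylated and rearranged to succinyl-CoA and so enters the tricarboxylic acid cycle. Inherited loss of several of these enzymes causes organic acidurias.

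The cells were NOMO-1, an established human line of acute myeloid leukaemia with monocytic features, in 3 groups of 2 libraries. All cells had been transduced with lentivirus and kept in puromycin at 2 µg/ml for 1 to 2 weeks. Control cells carried the empty vector (EV) and the sgNS guide, which serves as the guide control. Knockout cells carried EV and a guide against METTL16, an RNA N6-adenosine methyltransferase. Rescue cells carried the same METTL16 guide on top of METTL16 overexpression (OE-METTL16), so they were a parallel group and not knockout cells followed in time. The labels used here do not say whether the cells were clones or pools, and do not state that replicates were grown apart, so the p-values speak for the spread among these libraries alone.

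Each gene has 1 abundance value per library, called the signal below, from a quantification that divides by transcript length, so that signals of different genes can be set side by side. The signal summed over all genes was 597160 to 681928 per library. Control replicate 2 lay below the others over all tested genes, with a median log2 deviation of -0.12 against 0.0044 to 0.047 elsewhere. No read totals are stated. From the spacing of low values, a signal of 1 stood for roughly 46.1 to 51.2 reads over a transcript of 2000 nt, which puts AUH at about 125 to 199 reads per library and the other 8 genes at about 495 to 2779. METTL16 itself had a signal of 9.89 and 9.63 in control, 6.05 and 5.83 in knockout and 12.3 and 12.1 in rescue, in the order the labels give. Of 11 markers of the line, 9 were in the table, among them CD33, CD68, LYZ and SPI1, while CD14 and MPO were not listed. Among the 9, CSF1R had a signal of only 0.817 and 0.881 in control, and ITGAM of 5.65 and 4.79. Of 10 markers of lymphoid, epithelial, erythroid and platelet cells, most were not listed, and those listed had a summed signal of 1.57 to 2.85 per library.

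The 9 genes differed widely in level, and the order of the levels was largely shared between groups. In control the highest mean signal was that of PCCA (42.6 ± 3.14, SD, n = 2), followed by MCCC1 (34.7 ± 2.36), HIBADH (33.0 ± 0.988), PCCB (26.6 ± 0.589), MCCC2 (24.5 ± 1.21), HIBCH (18.7 ± 1.39), MUT (13.8 ± 1.36), IVD (11.4 ± 0.969) and AUH (4.53 ± 0.843). The values of MCCC1 and HIBADH overlapped between the control libraries, and those of the other neighbours in this order did not. In knockout PCCB stood at position 6 in place of 4 and MUT at position 5 in place of 7. The knockout values of PCCB and of HIBCH, its lower neighbour there, overlapped. In rescue MUT was back at position 7, and PCCB stood at position 5 with values that overlapped those of MCCC2 above it. Summed over the 9 genes the signal was 219 and 201 in control, 199 and 198 in knockout, and 212 and 216 in rescue.

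**Figure D1:**
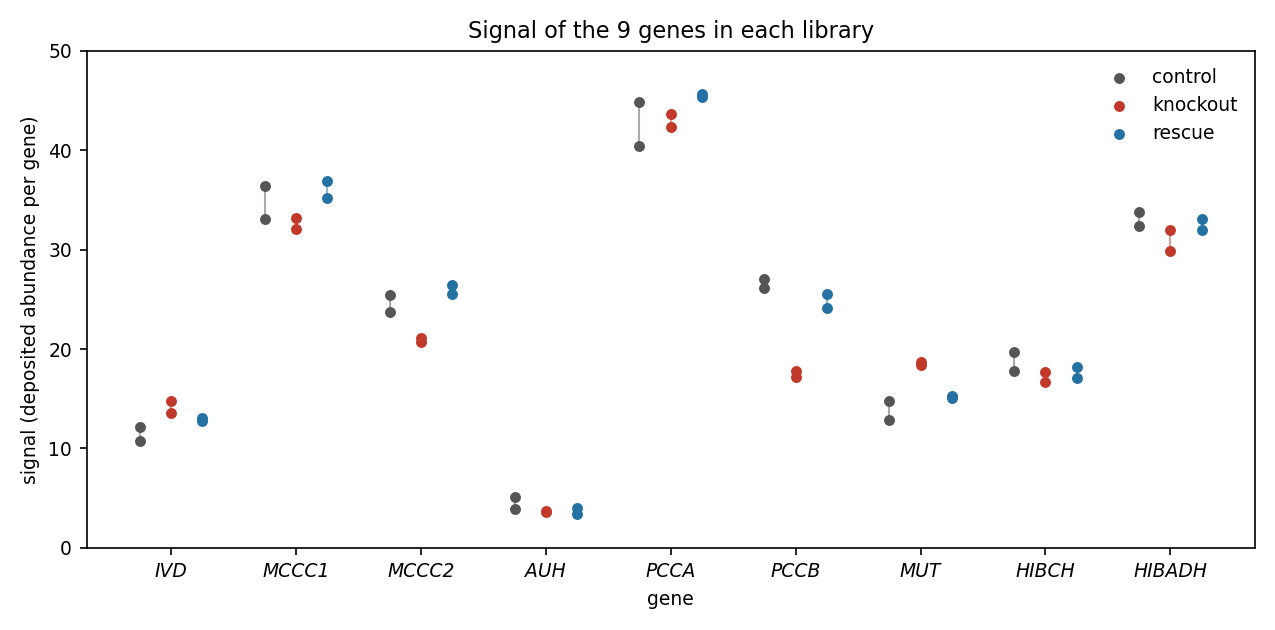
Signal of each gene (vertical axis, deposited abundance) in the 6 libraries; each point is 1 library, thin lines join the 2 libraries of a group, and colours give control, knockout and rescue. PCCB and MCCC2 are lowest and MUT and IVD highest in the knockout libraries, and AUH is the lowest gene in all groups.

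Knockout was compared with control to ask which of these transcripts differed in cells that carried the METTL16 guide. PCCB and MCCC2 fell and MUT and IVD rose, and the other 5 genes did not pass the test. In a bulk library, fewer cells of a kind and less RNA per cell cannot be told apart. PCCB, the largest of these differences, was at 0.659 of its control level and MUT at 1.34 times its control level. The test was limma on log2(signal + 1) over all 12734 tested genes, two-sided, with Benjamini-Hochberg adjusted p and a threshold of 0.05. It called 39.7% of all tested genes (26.2% higher and 13.5% lower), so 4 called genes of 9 is a share near the background, and no result for the 9 genes as a set. Their median log2 difference was -0.094, against 0.067 over all tested genes. After scaling each library to its median ratio the split over all genes turned from 3333 higher and 1723 lower to 2920 higher and 3435 lower. The list then had 2 genes higher and 6 lower.

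In the propionyl-CoA route, 1 subunit of the carboxylase fell and its partner did not pass the test. Propionyl-CoA carboxylase is built from PCCA, the subunit that carries biotin, and PCCB, the subunit that transfers the carboxyl group. PCCB (ENSG00000114054, chromosome 3, 136250306 to 136337896, plus strand, GRCh38) had a signal of 27.0 and 26.2 in control, 17.2 and 17.8 in knockout and 24.1 and 25.6 in rescue. Both knockout libraries lay well below the other 4. The log2 difference of knockout from control was -0.58 (SE 0.068, adjusted p = 2.38e-05), which places PCCB at percentile 1.78 of all tested genes. It passed under all 14 alternatives, between -0.67 and -0.55.

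PCCA (ENSG00000175198, chromosome 13, 100089015 to 100530437, plus strand) had a signal of 44.9 and 40.4 in control, 43.7 and 42.4 in knockout and 45.4 and 45.6 in rescue. The knockout values lay between the control values. Its log2 difference was 0.015 (95% interval -0.12 to 0.15, adjusted p = 0.877), and the sign turned to -0.077 after median-ratio scaling. The level of PCCB relative to PCCA was 0.602 and 0.648 in control, 0.394 and 0.421 in knockout and 0.531 and 0.560 in rescue. The groups did not overlap in this ratio, and rescue lay between knockout and control.

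MUT (ENSG00000146085, chromosome 6, 49430360 to 49463191, minus strand, named MMUT in current nomenclature) encodes methylmalonyl-CoA mutase, a cobalamin-dependent enzyme that acts after the carboxylase and the epimerase MCEE. Its signal was 14.8 and 12.9 in control, 18.4 and 18.7 in knockout and 15.3 and 15.0 in rescue. All 4 control and rescue libraries lay below both knockout libraries. The log2 difference of knockout from control was 0.40 (SE 0.079, adjusted p = 0.00128), and it passed under all 14 alternatives, between 0.31 and 0.50. PCCB and MUT, with MCEE acting between their enzymes, thus moved in opposite directions. Their ratio, looked at after these values were seen, was 1.83 and 2.04 in control, 0.933 and 0.955 in knockout and 1.57 and 1.70 in rescue.

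**Figure D2:**
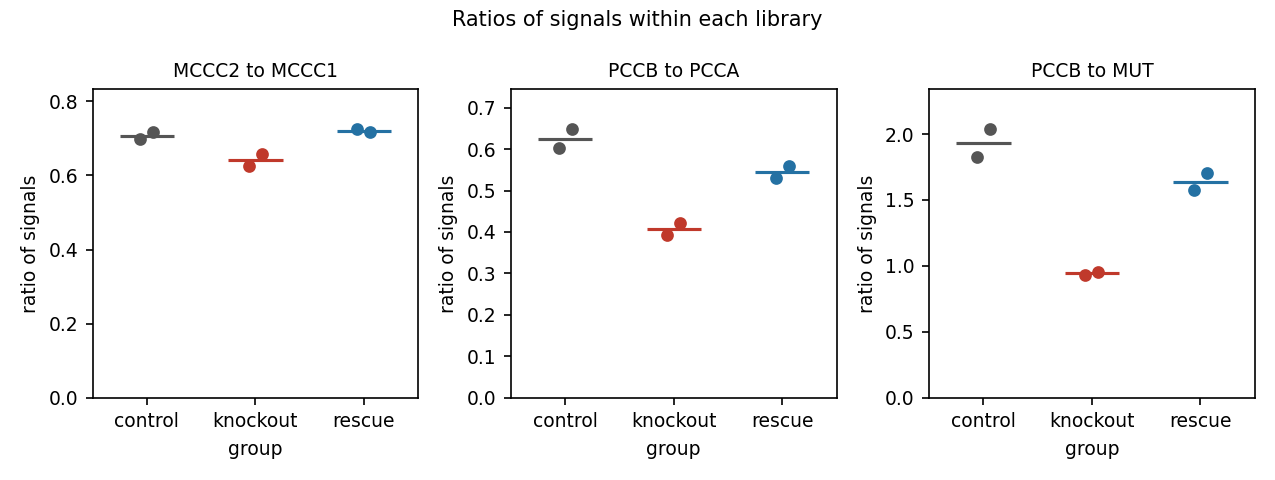
Ratio of 2 signals within each library (vertical axis, starting at 0) for MCCC2 to MCCC1, PCCB to PCCA and PCCB to MUT; points are libraries and bars are group means. PCCB to PCCA has a mean of 0.625 for control, 0.407 for knockout and 0.545 for rescue, and the ratio of MCCC2 to MCCC1 changes less.

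In the leucine branch, IVD, the dehydrogenase that opens it, and MCCC2, a subunit of the carboxylase that comes next, moved in opposite directions. IVD (ENSG00000128928, chromosome 15, 40405795 to 40435947, plus strand) encodes isovaleryl-CoA dehydrogenase, which passes electrons to the electron-transfer flavoprotein. Its signal was 12.1 and 10.7 in control, 14.7 and 13.5 in knockout and 12.8 and 13.0 in rescue. The knockout libraries were the highest and the rescue libraries lay between the groups. The log2 difference of knockout from control was 0.29 (SE 0.083, adjusted p = 0.0140). Leaving out control replicate 2 ended the call (0.21, adjusted p = 0.0602), as did leaving out knockout replicate 1 (0.23, adjusted p = 0.156).

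Methylcrotonyl-CoA carboxylase is built like propionyl-CoA carboxylase, with MCCC1 as the biotin-carrying subunit and MCCC2 as the carboxyltransferase. MCCC2 (ENSG00000131844, chromosome 5, 71587288 to 71658704, plus strand) had a signal of 25.4 and 23.7 in control, 20.7 and 21.1 in knockout and 25.5 and 26.5 in rescue. Both knockout values were below all others. Its log2 difference was -0.22 (SE 0.068, adjusted p = 0.0187), a call lost without knockout replicate 1 (-0.21, adjusted p = 0.131) and without knockout replicate 2 (-0.23, adjusted p = 0.0789).

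MCCC1 (ENSG00000078070, chromosome 3, 183015218 to 183116075, minus strand) had a signal of 36.4 and 33.0 in control, 33.1 and 32.0 in knockout and 35.2 and 36.9 in rescue. Knockout and control overlapped, and the log2 difference was -0.087 (95% interval -0.23 to 0.057, adjusted p = 0.323). It passed as a fall after quantile normalization (-0.15, adjusted p = 0.0119) and after median-ratio scaling (-0.18, adjusted p = 0.00379). The ratio of MCCC2 to MCCC1 was 0.698 and 0.717 in control, 0.624 and 0.658 in knockout and 0.725 and 0.718 in rescue. In both carboxylases the ratio of the carboxyltransferase to the biotin-carrying subunit was therefore lowest in the knockout libraries. With 2 libraries against 2 no exact permutation p could pass 0.05, and the ratios are a description.

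AUH (ENSG00000148090, chromosome 9, 91213815 to 91361913, minus strand) encodes methylglutaconyl-CoA hydratase, a protein that also binds AU-rich RNA. Its signal was 5.13 and 3.94 in control, 3.58 and 3.71 in knockout and 4.001 and 3.37 in rescue. Control replicate 1 stood above the other 5 libraries. At about 125 reads in the lowest library, counting error alone is near 8.93% of a value. The log2 difference was -0.24 (95% interval -0.50 to 0.0074, adjusted p = 0.113). It passed without control replicate 2 (-0.40, adjusted p = 0.0311) and after quantile normalization (adjusted p = 0.0361) or median-ratio scaling (adjusted p = 0.0357).

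The valine branch showed the smallest differences apart from PCCA and MCCC1. HIBCH (ENSG00000198130, chromosome 2, 190189735 to 190344193, minus strand) releases free hydroxyisobutyrate from its CoA ester. Its signal was 19.7 and 17.8 in control, 17.7 and 16.6 in knockout and 17.0 and 18.2 in rescue, with a log2 difference of knockout from control of -0.12 (95% interval -0.29 to 0.046, adjusted p = 0.236). HIBADH (ENSG00000106049, chromosome 7, 27525442 to 27662995, minus strand) oxidises that product. Its signal was 33.7 and 32.3 in control, 29.8 and 32.0 in knockout and 33.0 and 32.0 in rescue, with a log2 difference of -0.094 (95% interval -0.23 to 0.045, adjusted p = 0.269). Neither gene passed the test. The nearest values of the groups lay close, at 17.77 in control and 17.68 in knockout for HIBCH, and at 32.34 and 31.95 for HIBADH. Both passed as falls after median-ratio scaling, HIBCH at -0.21 (adjusted p = 0.00612) and HIBADH at -0.18 (adjusted p = 0.0270), and HIBCH also after quantile normalization (-0.17, adjusted p = 0.0144).

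**Figure D3:**
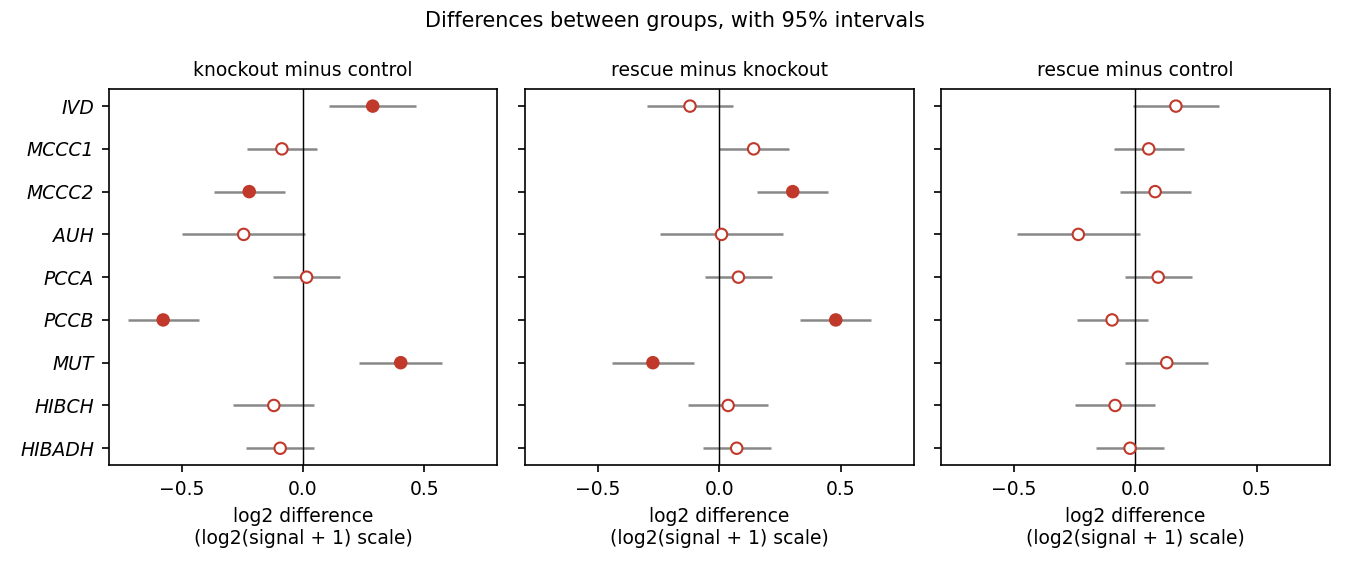
Log2 difference (horizontal axis, log2(signal + 1) scale) of the 9 genes in the 3 comparisons; points are limma estimates, bars are 95% intervals, and filled points have an adjusted p below 0.05. PCCB, MCCC2, MUT and IVD are filled in knockout minus control, PCCB, MCCC2 and MUT in rescue minus knockout, and none in rescue minus control.

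The promoters of the 4 genes called in knockout against control are shown because 2 of them fell together and 2 rose together. They are the 250 bases before the RefSeq start (GRCh38.p14), on the strand of the gene, at chr3:136250090-136250339 for PCCB, chr5:71587090-71587339 for MCCC2, chr6:49463254-49463503 for MUT and chr15:40405545-40405794 for IVD. Capitals mark CCAAT on either strand (ATTGG on the reverse) and the palindrome CACGTG.
PCCB: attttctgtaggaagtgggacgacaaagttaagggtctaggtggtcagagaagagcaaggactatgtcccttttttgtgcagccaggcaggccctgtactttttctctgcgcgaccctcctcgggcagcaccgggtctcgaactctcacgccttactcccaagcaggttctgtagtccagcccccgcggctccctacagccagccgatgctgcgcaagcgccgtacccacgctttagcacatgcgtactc
MCCC2: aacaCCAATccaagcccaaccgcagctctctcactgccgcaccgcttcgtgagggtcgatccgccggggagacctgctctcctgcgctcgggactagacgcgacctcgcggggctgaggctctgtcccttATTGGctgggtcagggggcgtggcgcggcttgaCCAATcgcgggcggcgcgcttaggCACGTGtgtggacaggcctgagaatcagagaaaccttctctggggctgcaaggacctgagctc
MUT: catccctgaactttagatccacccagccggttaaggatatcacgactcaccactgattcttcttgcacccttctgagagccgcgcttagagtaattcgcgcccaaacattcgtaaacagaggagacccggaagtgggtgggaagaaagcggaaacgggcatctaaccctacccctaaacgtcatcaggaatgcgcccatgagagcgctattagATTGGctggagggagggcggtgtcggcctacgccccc
IVD: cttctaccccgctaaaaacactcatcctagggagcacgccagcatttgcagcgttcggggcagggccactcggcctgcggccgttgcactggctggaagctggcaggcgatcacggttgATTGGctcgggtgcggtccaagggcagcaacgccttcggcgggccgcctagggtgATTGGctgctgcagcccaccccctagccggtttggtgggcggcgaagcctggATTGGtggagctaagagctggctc

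MCCC2 and IVD each held 3 CCAAT boxes, and MUT held 1, which begins 37 bases before the start. In IVD they begin 131, 76 and 24 bases before the start, and in MCCC2 246, 120 and 87 bases before it. The element was thus present in MCCC2, which fell, and in MUT and IVD, which rose, and absent from PCCB, which fell. Whether it had a part in these differences was not tested. Besides CCAAT and CACGTG, the GC box GGGCGG was searched, and so was an amino acid response element given below, each on both strands. PCCB held none of these 4 motifs. Promoter entries were matched for 8 of the 9 genes, all but HIBADH. MCCC1 had 3 entries, and the one nearest the start of the transcript used was taken; CCAAT and CACGTG were in 2 of the 3. Of the 8 genes 5 held CCAAT, where 32.0% of all 35116 promoter entries did over the same length. CACGTG was in MCCC2 and MCCC1, against 6.34% of all entries. The GC box, bound by SP1 and its relatives, was in 6 of 8 against 42.6%. The amino acid response element TGATGNAA, a site of ATF4 with CEBP partners, was in none of the 8, against 3.14%. A match is a description of the letters and not evidence of binding.

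METTL16 is known to bind the nonamer UACAGAGAA within hairpins of MAT2A messenger RNA. Written as DNA (TACAGAGAA, sense strand), it was found in 1 of the 9 genes, MCCC1, and in 3.12% of 19902 protein-coding genes, with 1 transcript of GENCODE release 29 taken per gene. The MCCC1 match lies in the coding part of exon 19 of 19 (chr3:183015513-183015521, minus strand). The MAT2A transcript held 5 matches, all in its 3′ untranslated region. The MCCC1 match and the first MAT2A match (chr2:85543812-85543820, plus strand) are shown with 10 bases on each side, and the nonamer is in capitals.
MCCC1: gaaagtgttcTACAGAGAAggtgctcagg
MAT2A: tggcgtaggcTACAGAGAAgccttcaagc

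MAT2A, which encodes an S-adenosylmethionine synthetase, had a signal of 140 and 132 in control, 77.6 and 78.1 in knockout and 134 and 138 in rescue. It fell in knockout (log2 -0.80, adjusted p = 2.00e-07). MCCC1, the 1 listed gene with the nonamer, was at -0.087 and did not pass the test. It passed as a fall after quantile normalization (-0.15) and after median-ratio scaling (-0.18). Whether the nonamer had a part in these differences was not tested. The 4 called genes held no match in the transcripts used.

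The comparison of rescue with knockout asked how these transcripts stood in cells that carried the same guide and overexpressed METTL16. PCCB and MCCC2 were higher and MUT was lower in rescue than in knockout, and the other 6 genes, IVD among them, did not pass the test. The background was 31.4% of all tested genes called (15.6% higher and 15.9% lower), so 3 of 9 is again near it. This comparison uses the same knockout libraries as the one above, so values that turn back are not independent of those above.

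PCCB rose by 0.48 on the log2 scale (SE 0.068, adjusted p = 0.000184), to 1.42 times the knockout level, and passed under all 14 alternatives. MCCC2 rose by 0.30 (SE 0.068, adjusted p = 0.00418), a call lost without rescue replicate 2 (0.28, adjusted p = 0.0647). MUT fell by 0.27 (SE 0.079, adjusted p = 0.0176). Its call was lost without knockout replicate 1 (adjusted p = 0.0699), knockout replicate 2 (0.0901), rescue replicate 1 (0.0752) or rescue replicate 2 (0.117), with the difference between -0.29 and -0.26 in all 4. IVD was at -0.12 (95% interval -0.30 to 0.058, adjusted p = 0.293). MCCC1 was at 0.14 (adjusted p = 0.124) and passed under 5 of 14 alternatives, among them median-ratio scaling (0.17, adjusted p = 0.00585). PCCA was at 0.079 (adjusted p = 0.378) and passed after median-ratio scaling alone (0.10, adjusted p = 0.0243). AUH, HIBCH and HIBADH were at 0.0094, 0.037 and 0.072, with adjusted p of 0.960, 0.752 and 0.427.

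Taking the gap between the group means of knockout and control as 100%, rescue covered 80.5% of it for PCCB, 71.4% for MUT, 44.9% for IVD and 140% for MCCC2. The range over libraries left out singly was wide for IVD (29.4% without knockout replicate 1 to 60.0% without control replicate 2) and MCCC2 (114% without control replicate 2 to 183% without control replicate 1). For PCCB it was 72.3% to 88.7% and for MUT 59.3% to 89.7%. In rescue minus control 0 of the 9 genes passed limma's test, and 0 had an unadjusted p below 0.05. The differences ran from -0.24 for AUH (95% interval -0.49 to 0.017, adjusted p = 0.477) to 0.17 for IVD (95% interval -0.012 to 0.34, adjusted p = 0.477). Only 0.283% of all tested genes, 36 in number, were called there, and the median over all genes was 0.061 against 0.055 over the 9. The intervals of PCCB (-0.24 to 0.050) and MUT (-0.041 to 0.30) leave room for differences of about the size seen for MCCC2 in knockout.

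The other enzymes of the pathway were taken from lists ordered by place in the pathway. Of 8 further enzymes after the ketoacid dehydrogenase (among them ACADSB, ACAD8, ACAT1 and MCEE), 0 passed limma's test in knockout against control or in rescue against knockout, and 0 had an unadjusted p below 0.05 in either. Limma called 39.7% and 31.4% of all tested genes in these comparisons. The knockout differences of the 8 enzymes ran from -0.097 for ACAT1, the mitochondrial acetoacetyl-CoA thiolase, to 0.11 for HSD17B10, a dehydrogenase of the isoleucine branch. MCEE, the epimerase that acts between the carboxylase and the mutase, had a signal of 15.3 and 13.5 in control, 13.7 and 14.6 in knockout and 13.0 and 16.2 in rescue. The groups overlapped, while the enzymes before and after it, PCCB and MUT, moved in opposite directions.

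Of the 8 genes that act before these enzymes, 2 fell in knockout and rose in rescue, and 6 did not pass. Over all tested genes 39.7% were called in knockout, and 11.5% fell there and were higher in rescue. BCAT2, the mitochondrial branched-chain aminotransferase, was at -1.04 in knockout (adjusted p = 5.16e-07) and BCAT1, the cytosolic form, at -0.53 (adjusted p = 8.57e-05). BCKDHA, BCKDHB, DBT and DLD, the subunits of the ketoacid dehydrogenase complex, lay between -0.11 and 0.097. BCKDK, the kinase that inhibits the complex, was at -0.19 (adjusted p = 0.0832) and PPM1K, the phosphatase that activates it, at -0.050 (adjusted p = 0.737).

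Other genes supply biotin and cobalamin to these enzymes. Of 3 biotin genes, 2 fell in knockout and 1 did not pass, where 13.5% of all tested genes fell. SLC5A6, the vitamin transporter that imports biotin, and HLCS, the synthetase that attaches it to PCCA and MCCC1, were those that fell. SLC5A6 had a signal of 27.8 and 25.3 in control, 18.2 and 17.8 in knockout and 27.6 and 28.6 in rescue (log2 -0.54 in knockout, adjusted p = 5.27e-05, and 0.62 for rescue less knockout, adjusted p = 3.06e-05). HLCS had a signal of 9.54 and 8.47 in control, 6.76 and 7.02 in knockout and 8.76 and 9.86 in rescue (log2 -0.34, adjusted p = 0.00980, and 0.38, adjusted p = 0.00625). The knockout call was lost without control replicate 1 or knockout replicate 1 (highest adjusted p = 0.0613), and the call in rescue without rescue replicate 2 (adjusted p = 0.0997). BTD, which recycles biotin, was at 0.22 in knockout (adjusted p = 0.126).

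Of 8 cobalamin genes, 3 rose in knockout against control and fell in rescue against knockout, and 5 did not pass in knockout. Over all tested genes 15.0% did both, in comparisons that share the knockout libraries. CD320, the receptor for transcobalamin, had a signal of 21.1 and 19.1 in control, 32.2 and 29.9 in knockout and 24.9 and 23.0 in rescue. All libraries of knockout lay above all others, with log2 differences of 0.60 in knockout (adjusted p = 3.53e-05) and -0.36 for rescue less knockout (adjusted p = 0.00243). MMADHC, which directs cobalamin inside the cell, was at 0.34 in knockout (adjusted p = 0.000467) and -0.23 in rescue (adjusted p = 0.00982). The second of these was lost without knockout replicate 2 or either rescue replicate (highest adjusted p = 0.119). LMBRD1, a lysosomal protein of cobalamin export, was at 0.26 (adjusted p = 0.0282) and -0.25 (adjusted p = 0.0446). Its knockout call was lost without control replicate 2 or either knockout replicate (highest adjusted p = 0.140), and its rescue call without a filter or without any single library of knockout or rescue (highest adjusted p = 0.426). MMAA and MMAB, which deliver the cofactor to MUT, were at -0.042 and -0.18 and did not pass.

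Of the 3 electron-transfer genes that take electrons from IVD (ETFA, ETFB and ETFDH), 0 passed limma's test and 0 had an unadjusted p below 0.05, with knockout differences of -0.085 to 0.11. Limma called 39.7% of all tested genes in knockout against control. SUCLG1, the shared subunit of the succinyl-CoA ligases that use the product of MUT, was at -0.56 in knockout (adjusted p = 3.83e-05) and 0.47 higher in rescue than there (adjusted p = 0.000282). Its partner SUCLG2 had a log2 difference of -0.20 (adjusted p = 0.0204), a call that ended without a trend, with the 2 groups alone, and without any single library of knockout or rescue (highest adjusted p = 0.152). Against knockout, rescue was 0.23 higher (adjusted p = 0.0149), a result that each library of these groups, left out singly, ended (highest adjusted p = 0.132). The other partner, SUCLA2, did not pass (-0.030). MUT and SUCLG1, which act in sequence, thus moved in opposite directions in knockout.

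Among 9 measured acyl-CoA dehydrogenases and carboxylases related to IVD, PCCA and MCCC1, 3 rose and 3 fell in knockout, where 26.2% of all tested genes rose and 13.5% fell. ACADM and ACAD11, dehydrogenases of fatty acyl-CoA, were at -0.46 (adjusted p = 0.000176) and -0.54 (adjusted p = 0.000764) and passed under all 14 alternatives. ACADVL, the very-long-chain enzyme, was at -0.25 (adjusted p = 0.00832), lost without knockout replicate 2 (highest adjusted p = 0.0839). PC, pyruvate carboxylase, was at 0.32 (adjusted p = 0.0165), lost without either knockout replicate (highest adjusted p = 0.116). ACADS and ACAD9, dehydrogenases like IVD, were at 0.28 (adjusted p = 0.0406) and 0.22 (adjusted p = 0.0235). Both calls were lost after median-ratio scaling, without control replicate 2 and without knockout replicate 1 (highest adjusted p = 0.420 for ACADS and 0.254 for ACAD9). Over all 42 related genes tested, 6 rose and 9 fell in knockout against control, and 9 rose and 3 fell in rescue against knockout, with medians of -0.0046 and 0.035. Of all tested genes 39.7% and 31.4% were called in either direction, and the related genes were near these shares. By direction, 26.2% of all tested genes rose and 13.5% fell in knockout against control. In rescue against knockout 15.6% rose and 15.9% fell. Whether the split by direction of the related genes differs from that of all genes was not tested.

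**Figure D4:**
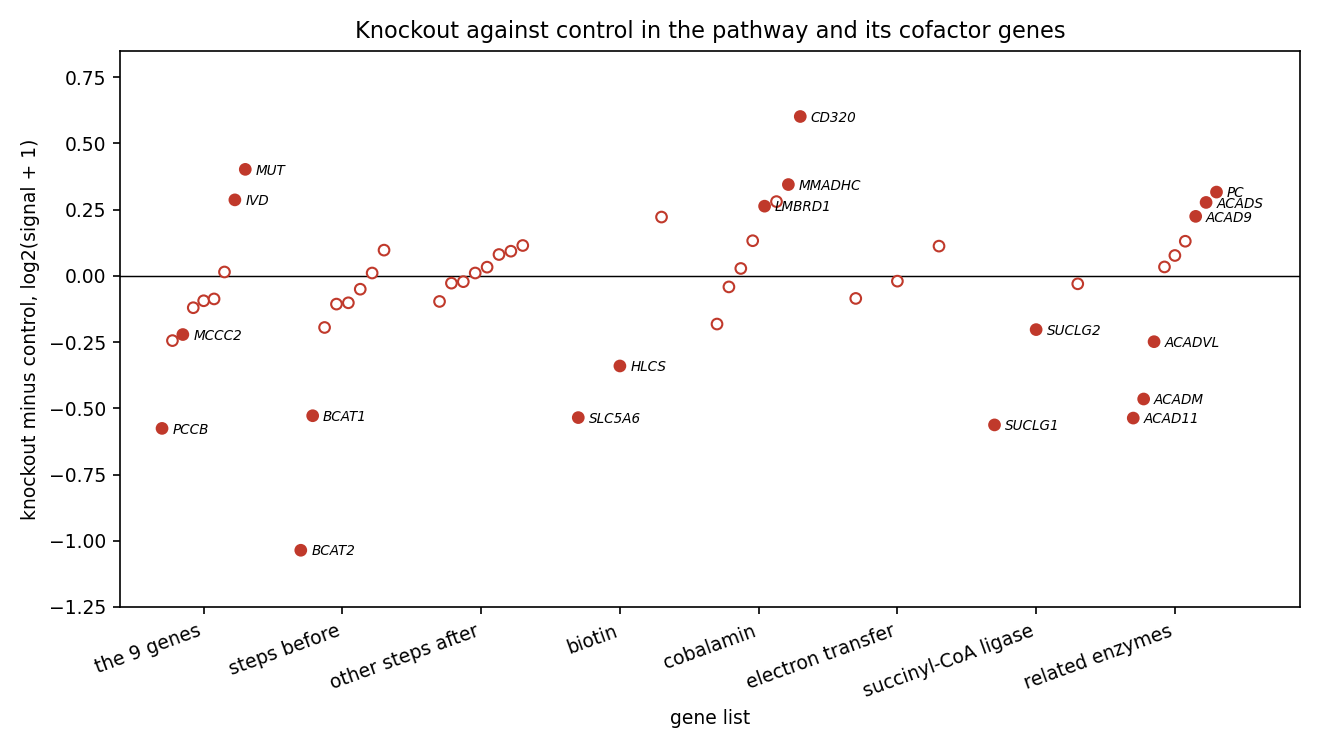
Log2 difference of knockout from control (vertical axis, log2(signal + 1) scale) for each tested gene, by list; filled points have an adjusted p below 0.05 and carry the symbol. Enzymes after the dehydrogenase outside the 9 genes lie between -0.097 and 0.11 with none filled, the 3 filled cobalamin genes of 8 lie above 0, and the 2 filled biotin genes of 3 lie below it.

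Most genes on a list of myeloid granule and monocyte markers moved with the same groups. Of 15 listed, 13 were tested, and 10 both rose in knockout against control and fell in rescue against knockout, with MPO and CD14 not listed in the table. Over all tested genes 15.0% did both. The other 3, AZU1, ITGAM and CYBB, passed in neither comparison. Their knockout differences were 0.17, -0.095 and 0.18 (adjusted p = 0.102, 0.491 and 0.205). In rescue against control 5 of the 13 were still higher, where 0.283% of all genes were called. The summed signal of the 13 genes was 560 to 600.0 in control, 1860 to 1914 in knockout and 821 to 826 in rescue. CTSG, which encodes cathepsin G and was singled out after its values were seen, made up much of that sum. Without it the other 12 genes summed to 255 to 276 in control, 520.1 to 550.5 in knockout and 334 to 339 in rescue. The part of the 13 genes in the differences above was not tested.

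The genes whose pattern over the 6 libraries lay closest to that of a called gene were found by the Euclidean distance of centred log2(signal + 1) values. For PCCB they were SH3RF3 (distance 0.050), HIST2H2AC (0.070) and HIST1H2BJ (0.071), where PCCB itself lay 0.62 from a flat line. For MCCC2 they included ANKRD36 (0.029) and SECISBP2 (0.029), with MCCC2 at 0.32. For MUT they were RAB31 (0.046), PRR13 (0.047) and MTG2 (0.052), with MUT at 0.43. For IVD they were BEGAIN (0.038), TSPAN17 (0.040) and TGFB1 (0.043), with IVD at 0.32. The listed enzymes were left out of this search, and only the 3 nearest genes per called gene were kept. The names therefore cannot show whether enzymes of the pathway share these patterns, which was not tested.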

How the data were processed

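Total RNA of 6 NOMO-1 libraries was depleted of rRNA and sequenced. The submitters' processing notes name STAR, RSEM and GRCh38 and give no versions. The authors deposited 1 signal per gene and library, an RSEM abundance of which no source used here says whether it is TPM or FPKM. The table has 15059 genes with a minimum near 0.1. Groups were compared with limma 3.58.1 (R 4.3.3), using log2(signal + 1), a mean-variance trend and a single model of all 6 libraries. It had 3 residual and 11.0 prior degrees of freedom. A gene was tested where 2 or more libraries reached a signal of 1, which kept 12734 and left out 2325. Adding 1 shrinks differences of low genes. The fit was tested on simulated data. Depth was estimated from genes of up to 400 nt with 1 transcript, as the step that makes signal times length less 50 nt whole. With it, 71.3% to 78.0% of values came within 0.15 of an integer (30% by chance for a preset step), so the estimate is rough.

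The genes, lists and tests were chosen with earlier results of these data known. Named genes were the 9 genes, METTL16 and MAT2A, related genes passing 0.05 in knockout minus control, the 16 other enzymes and regulators of the pathway, and the 3 nearest patterns per called gene. Some of these genes are not reported here. Alternatives were another pseudocount (0.1), other filters (none, or a mean of at least 5), 2 scalings, a fit without a trend or with 2 groups, a replicate block and leaving out each library. Coordinates are from GENCODE release 29 and promoters from RefSeq. Sequences and figures were handled in Python (3.11.15) with pandas 2.3.3, numpy 2.4.6 and matplotlib 3.10.9.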

Additional observations from a re-analysis of the deposited data

How the results depend on the processing

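Of 125 combinations of gene and alternative per comparison, 109 kept direction and call in knockout minus control, 110 in rescue minus knockout and 121 in rescue minus control. The 4 genes called in knockout became 7 after quantile normalization, 8 after median-ratio scaling and 2 to 4 with 1 library left out. The 3 called in rescue minus knockout became 5 after median-ratio scaling and 1 to 4 with 1 library left out, and the 0 in rescue minus control stayed 0 under all 14. Calls over all tested genes also rose under these scalings. In knockout minus control, quantile normalization called 3146 higher and 3187 lower of 12734, and median-ratio scaling 2920 higher and 3435 lower of 12722. The main fit called 3333 higher and 1723 lower. In rescue minus knockout, median-ratio scaling called 3102 higher and 2525 lower, where the main fit called 1982 and 2022. Whether the listed genes gained more calls than all genes was not tested. Differences that changed sign were all uncalled: PCCA in knockout (-0.055 after quantile normalization, -0.077 after median-ratio scaling, -0.059 to 0.088 with 1 library left out), MCCC1 in rescue minus control (-0.019, -0.011, -0.013 to 0.12), AUH (-0.088 to 0.11) and HIBCH (-0.0087 to 0.082) in rescue minus knockout, and HIBADH in rescue minus control (-0.052 to 0.0076). With 1 library left out, calls over all genes were 3363 to 5346 in knockout, 2484 to 5030 in rescue minus knockout and 8 to 281 in rescue minus control, and related genes called were 9 to 15 in knockout and 7 to 14 in rescue minus knockout. Rescue minus control called 36 genes, 23 without a filter, 225 at a mean of at least 5, 6 after median-ratio scaling, 9 without a trend and 277 with its 2 groups alone. The share covered by rescue ran from 29.4% to 60.0% for IVD, 114% to 183% for MCCC2 and 59.3% to 89.7% for MUT. The cause of these changes was not tested, except that leaving out a library leaves a group with 1 sample, assumed to vary like the others. With the replicate number as a block, calls over all genes became 5475, 4477 and 382, and no call among the 9 genes changed. The difference of replicate 1 less replicate 2 within a group was correlated between groups across the tested genes. The correlation was -0.011 for control and knockout, -0.048 for control and rescue, and 0.10 for knockout and rescue. Correlations this weak do not decide whether the numbers pair the libraries. Depth limits AUH most.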
